A study of Arabidopsis thaliana with 6 samples.

Results

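NAC proteins are transcription factors specific to plants, and NAC014 (ANAC014, locus AT1G33060) of Arabidopsis thaliana was the only member of the family that could be followed here. Members were taken as genes whose probe set names 1 gene with a symbol of NAC or ANAC followed by a number, and the brightest probe set of a gene stood for it. This rule found 1 gene, read by 1 probe set, among 13356 genes with a probe set of their own in the platform annotation used here. The gene table of RefSeq lists 100 genes with a NAC number as symbol or synonym, and 1 of these has a named probe set. The values below are therefore those of NAC014 and are not a description of the family, whose other genes were not analysed here.

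RNA came from whole seedlings of the Columbia (Col-0) accession that were 10 days old and carried the sdg2 mutation (3 arrays) or were wild type (3 arrays). Both genotypes grew at 22 °C in constant light (24 h per day) on plates with diluted MS salts. SDG2 (SET DOMAIN GROUP 2) trimethylates lysine 4 of histone H3, a mark of active genes, and the allele is not given in the sources used here. The titles call the arrays biological replicates, but nothing says how the plants were kept apart, so a p-value here reflects the scatter among these arrays, part of which may be technical. Array medians lay between 5.90 and 5.96 on the log2 scale, arrays of 1 genotype correlated at 0.997 to 0.998 and arrays of different genotype at 0.970 to 0.971. SDG2 has no named probe set here, so the genotype could not be checked on the mutated gene. In whole seedlings a lower signal can come from fewer cells that express a gene or from less RNA per cell, and the arrays cannot tell these apart.

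A NAC protein binds DNA through a conserved domain at its amino terminus and acts on transcription through its variable carboxyl end. Members of the family are known for roles in organ boundaries, secondary walls, leaf ageing and stress. Several, NAC014 among them, are grouped as membrane-bound NAC factors: they carry a membrane-spanning stretch at the carboxyl end and are thought to reach the nucleus once they are cut free. Their activity can therefore change without a change in transcript level, which is the quantity measured here. RefSeq lists 2 transcripts and 2 proteins for NAC014, and the single probe set gives no separate value for each.

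NAC014 was expressed in seedlings of both genotypes, and the data did not separate its level in sdg2 from that in wild type. Its log2 signal was 7.36, 7.15 and 7.17 in sdg2 replicates 1, 2 and 3, against 7.61, 7.26 and 7.61 in wild type replicates 1, 2 and 3. The sdg2 arrays lay low and wild type replicates 1 and 3 lay high, while wild type replicate 2 fell within the range of the sdg2 arrays, so the groups overlapped. All 6 values stood far above the lower mode at which probe sets of unexpressed genes pile up, which lay between 2.18 and 2.21.

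The mean log2 signal of NAC014 was 7.23 ± 0.11 in sdg2 and 7.49 ± 0.21 in wild type (SD, n = 3 each). The difference, sdg2 minus wild type, was -0.27 ± 0.12 (SE), a 1.20-fold lower signal in sdg2 that did not pass the test (limma, adjusted p = 0.164 over 22746 probe sets, unadjusted p = 0.0779). Its 95% confidence interval ran from -0.58 to 0.04 on the log2 scale, that is from 1.49-fold lower to 1.03-fold higher in sdg2. A change of 2-fold in either direction lies outside this interval, whereas a fall of up to 1.49-fold lies inside it. The count of members that changed was thus 0 of 1 in limma, 0 at an unadjusted p below 0.05 and 0 with unmoderated statistics. The background for that count is that 36.6% of all probe sets tested passed at an adjusted p below 0.05, 19% higher and 17.6% lower in sdg2, and 10.6% passed with a change of at least 2-fold.

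**Figure D1:**
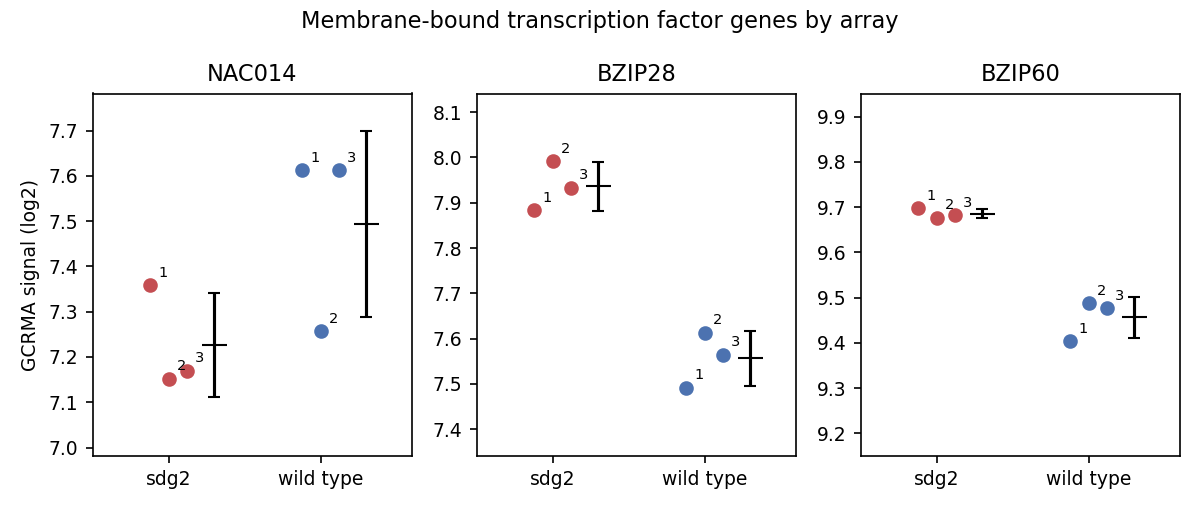
GCRMA signal (log2, vertical axis) of NAC014 and of the membrane-bound bZIP genes BZIP28 and BZIP60 on each array, with replicate numbers beside the points and the mean ± SD in black; each panel spans the same range of log2 units. For NAC014 wild type replicate 2, at 7.26, lies among the sdg2 arrays, while for both bZIP genes all 3 sdg2 arrays lie above all 3 wild type arrays.

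A single array decided the outcome. Without wild type replicate 2 the log2 difference of NAC014 was -0.39 ± 0.08 (SE, 3 sdg2 and 2 wild type arrays) and passed in limma (adjusted p = 0.0241). Without any other single array it lay between -0.33 and -0.21 and did not pass (adjusted p of 0.149 to 0.365). When arrays were weighted in the fit, wild type replicate 2 received the highest weight, 2.92, against 0.55 to 1.24 for the other arrays, and the difference of NAC014 became -0.12 ± 0.13 (limma, adjusted p = 0.505). These weights are set by how closely an array follows its group over all probe sets, and for NAC014 this same array stood apart from the rest of its group.

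**Figure D2:**
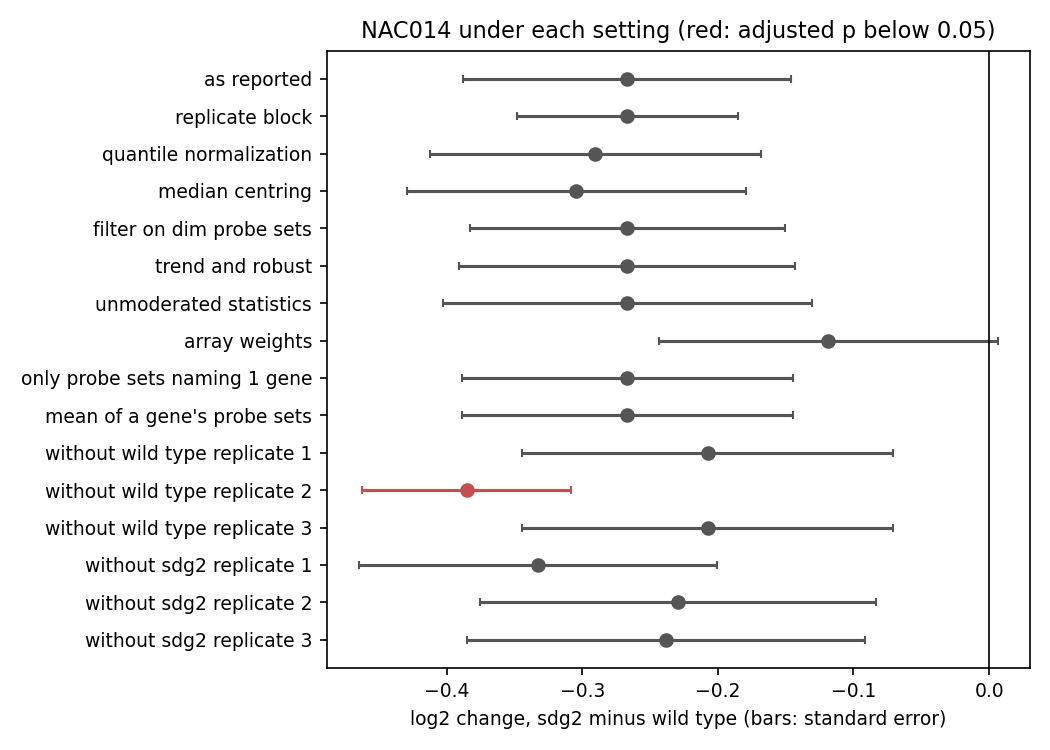
Log2 change of NAC014, sdg2 minus wild type (horizontal axis), as reported and under 15 other settings, with standard errors as bars and red for an adjusted p below 0.05. Every value lies below 0, from -0.39 to -0.12, and the one without wild type replicate 2 is the only one in red.

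The spread between replicates of NAC014 was wide for this data set. Its pooled SD within the groups was 0.17 log2 units, and 76% of all probe sets had a smaller one. Among the 2856 probe sets whose mean signal lay within 0.5 log2 units of that of NAC014, 75.1% had a smaller SD. At the SE that NAC014 had over all 6 arrays, a change had to reach 0.41 log2 units to pass. Of the probe sets near its signal, 61.3% differed by at least as much as NAC014 in either direction and 54.5% passed. Over all probe sets the median change was -0.01.

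**Figure D3:**
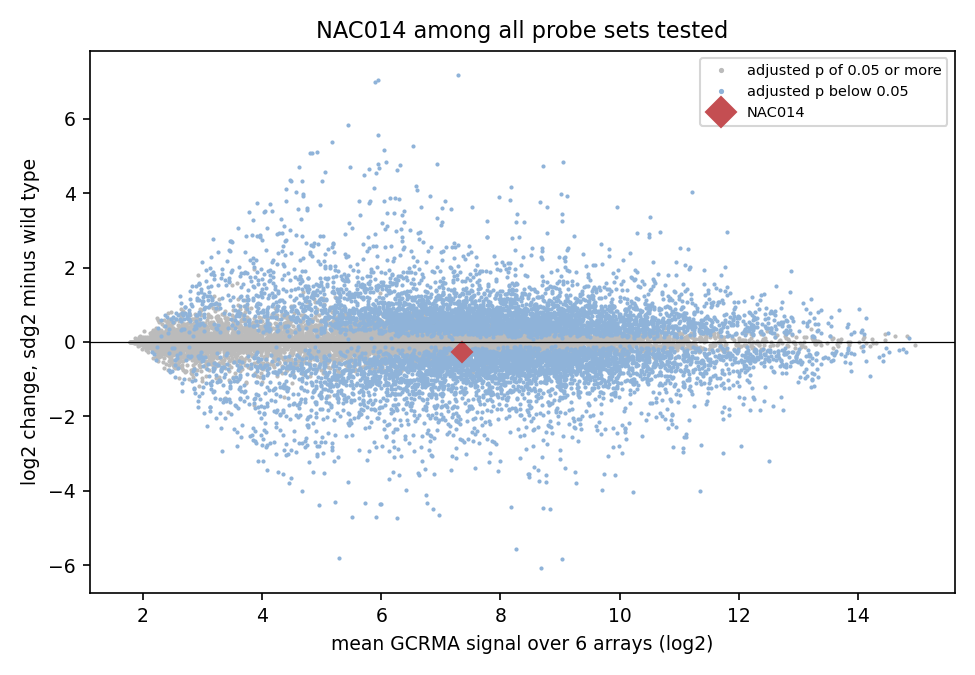
Log2 change, sdg2 minus wild type (vertical axis), against the mean GCRMA signal over the 6 arrays (log2, horizontal axis) for all 22746 probe sets tested, with those past an adjusted p of 0.05 in light blue and NAC014 as a red diamond. NAC014, which did not pass, lies at -0.27, close to the line of no change.

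The other membrane-bound transcription factor genes that were listed and measured, BZIP28 and BZIP60, rose slightly in sdg2. Both encode bZIP factors of the endoplasmic reticulum stress response, BZIP28 being released from the membrane by cutting and BZIP60 through splicing of its mRNA. BZIP28 had a log2 signal of 7.88, 7.99 and 7.93 in the sdg2 arrays, against 7.49, 7.61 and 7.56 in the wild type arrays, a difference of 0.38 ± 0.05 (SE, limma, adjusted p = 0.00223). BZIP60 had 9.70, 9.68 and 9.68 in sdg2, against 9.40, 9.49 and 9.48 in wild type, a difference of 0.23 ± 0.03 (SE, limma, adjusted p = 0.00317). The groups did not overlap for either gene, as was the case for 48.3% of all probe sets. These were the 2 measured of 8 listed genes of this response. BZIP17, a bZIP gene that was not listed, also had a named probe set, with a change of 0.53 (limma, adjusted p = 0.0355).

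The change of NAC014 was below 0 and that of both bZIP genes above 0. Taken within each array, the change of NAC014 minus that of BZIP28 was -0.65 ± 0.18 (SE) log2 units. The change of NAC014 minus that of BZIP60 was -0.50 ± 0.15 (SE). The exact permutation test of 3 against 3 arrays gave 0.1 (two-sided) for each, also after adjustment over the 2 pairs; it cannot go below 0.1, so it could not have passed the threshold of 0.05 and bears neither way on the difference. The values of these 2 relations shared the NAC014 arrays and are not independent of each other.

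Genes of the mitochondrial dysfunction response, known to be switched on in Arabidopsis by relatives of NAC014 such as ANAC013 and ANAC017, rose in 3 of the 4 measured of 9 listed. The median change of the 4 was 0.92 log2 units, beside -0.01 over all probe sets. In either direction 31.8% of all genes passed, and 19% of all probe sets passed higher in sdg2. AT12CYS-2 (AT5G09570), which encodes a small mitochondrial protein with paired cysteine motifs, had a log2 signal of 7.82, 7.68 and 7.97 in sdg2, against 4.21, 3.77 and 5.13 in wild type. All sdg2 arrays lay well above all wild type arrays, with a difference of 3.45 ± 0.36 (SE, limma, adjusted p = 0.00137), and wild type replicate 3 stood above the other two. UPOX (AT2G21640), a marker of oxidative stress in mitochondria, had a log2 signal of 7.14, 6.81 and 6.87 in sdg2, against 5.85, 6.14 and 6.21 in wild type, and rose by 0.87 ± 0.13 (SE, limma, adjusted p = 0.00539). HSP23.5 (AT5G51440), a small heat shock protein gene, had 5.07, 4.72 and 4.41 in sdg2, against 3.78, 3.78 and 3.71 in wild type, and rose by 0.98 ± 0.17 (SE, limma, adjusted p = 0.00831). The alternative NADH dehydrogenase gene NDB4 lay at background in both genotypes, with a mean of 2.02 in sdg2 and 2.02 in wild type. ANAC013 and ANAC017 were not analysed here.

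The other listed groups with a measured gene gave 1 value each. The proteasome subunit gene RPN12A had a log2 change of -0.08, the xylan synthesis gene IRX10 one of 0.02 and the methyltransferase gene BSMT1 one of -0.01, and none passed (adjusted p of 0.592 to 0.961). BSMT1 lay at background in both groups. The sugar transporter gene SAG29 of ageing tissue passed with a change of 0.37, at a signal of 2.44 in sdg2 and 2.07 in wild type, near background. Of 36 listed NAC genes with other common names, 0 had a named probe set.

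Some markers of shoot and root tissue, a gauge of tissue make-up, also moved. Of 3 measured shoot markers 1 fell, where 17.6% of all probe sets were lower in sdg2. It was the antenna protein gene LHCB4.2, with a change of -0.77 ± 0.06 (SE, limma, adjusted p = 0.000581), while RCA and LHCB4.1 had changes of 0.09 and 0.08 and did not pass. The mean of the 3 therefore follows LHCB4.2, and their median change was 0.08. Their mean log2 signal was 13.93 to 14 on the sdg2 arrays and 14.11 to 14.22 on the wild type arrays. Of 3 measured root markers 2 fell. The expansin gene EXPA18 fell by 0.33 ± 0.06 (SE, limma, adjusted p = 0.00956) and the root glucosidase gene PYK10 by 0.33 ± 0.09 (SE, limma, adjusted p = 0.0423), a call lost under 7 of 15 alternatives. EXPA7, with a change of -0.75, did not pass. Their mean log2 signal was 8.31 to 8.50 on the sdg2 arrays and 8.69 to 9.01 on the wild type arrays. The changes of RCA, LHCB4.1 and EXPA7 were not separated from 0. The part of tissue make-up in the values of NAC014 and of the listed genes was not tested.

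NAC014 lies on chromosome 1. Of its 10 neighbours on either side in the RefSeq gene order, 9 had a named probe set, of which 4 fell, 1 rose and 4 did not pass. The 4 that did not pass lay at or near background, with means of 2.03 to 2.41 in sdg2 and 2.05 to 2.31 in wild type. Over all genes, those at background included, 31.8% passed in either direction, and whether the neighbours differ from that share was not tested. The gene next to it, AT1G33055, had a log2 signal of 5.68, 5.19 and 5.49 in sdg2, against 8.95, 8.99 and 8.78 in wild type. This was a fall of 3.45 ± 0.14 (SE) on the log2 scale, or 10.9-fold, with no overlap of the groups (limma, adjusted p = 6.4e-05). AT1G33050, on the same side and 2 genes from NAC014, fell by 0.95 ± 0.08 (SE). On the other side the MATE-type efflux transporter genes AT1G33080 and AT1G33110 fell by 0.70 and 0.64. AT1G33030 rose by 1.92, with a mean of 4.46 in sdg2 and 2.54, near background, in wild type. The neighbour on the other side of NAC014, AT1G33070, lay at background in both groups, with 2.03 in sdg2 and 2.05 in wild type. The window was set by position, after the value of NAC014 was known, and the genes described within it were picked with their values in view.

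**Figure D4:**
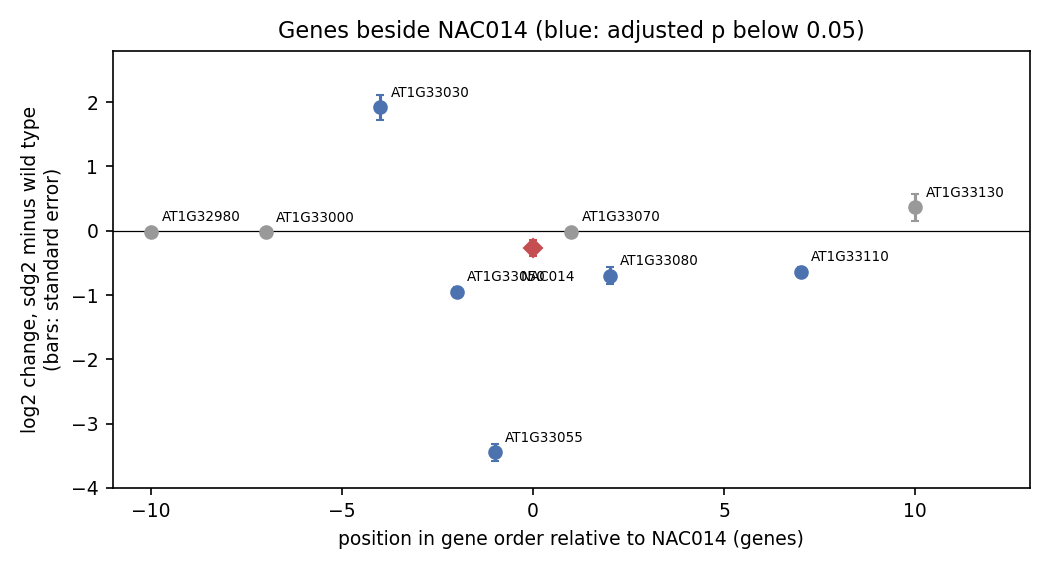
Log2 change, sdg2 minus wild type, with its standard error (vertical axis), of the named genes within 10 places of NAC014 in gene order (horizontal axis), with blue for an adjusted p below 0.05. AT1G33055, next to NAC014, fell by 3.45, while the change of NAC014 (red), -0.27, did not pass.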

How the data were processed

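The deposited table holds 1 value per probe set and array on the log2 scale; GCRMA (background adjustment, quantile normalization and probe summary) is the authors' processing named per the submitters' processing notes, with version and settings not given in the sources used here. The number of arrays limits the precision. Without 64 Affymetrix controls, 22746 probe sets were tested, and 13513 of these name 1 gene. Symbols were matched through the RefSeq gene table of TAIR10.1, used only for names and gene order.

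The change, sdg2 minus wild type, was fitted without a block in R 4.3.3 by lmFit and eBayes of limma 3.58.1, and p-values over all probe sets were adjusted by Benjamini-Hochberg, with a threshold of 0.05. The fit was also run on simulated data with independent normal noise, and no result here rests on that run. The rule for named genes took all members, each listed gene that passed, and the listed gene with the largest change where none passed. NDB4, BZIP17, the markers that did not pass and the genes beside NAC014 lie outside it. The window of neighbours was set by position; the other genes outside the rule, and the neighbours described, were picked with their values in view. The members and lists were chosen with earlier results of these data known. The fit was repeated with each array left out in turn, with median centring, with quantile normalization, with the replicate number as a block, with array weights, with eBayes set to trend and robust, with unmoderated statistics, with only probe sets at a log2 value of 5 or more on at least 3 arrays, with only probe sets naming 1 gene, and with probe sets of a gene averaged. Figures were drawn with matplotlib 3.10.9.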

Additional observations from a re-analysis of the deposited data

How the results depend on the processing

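The log2 change of NAC014 kept its sign under all 15 alternatives. Under the 9 that left out no array it lay between -0.30 (median centring) and -0.12 (array weights) and did not pass (adjusted p of 0.0744 to 0.505). Leaving out 1 array at a time gave -0.39 to -0.21, and the count of members called lower was 0 or 1, with 1 without wild type replicate 2. With the replicate number as a block the change of NAC014 was -0.27 ± 0.08 (SE, limma, adjusted p = 0.1). Deviations from the group mean correlated at -0.00816, 0.072 and 0.0636 for same-numbered arrays, and at -0.0823 to 0.0129 for differently numbered ones. With 3 arrays per group these correlations cannot decide whether the numbers mark a shared batch. Both bZIP genes, AT12CYS-2 and UPOX passed, higher in sdg2, under all 15 alternatives. HSP23.5 passed under the 14 that kept it; the filter on dim probe sets removed it, which left 2 mitochondrial response genes called. Genes that did not pass changed sign in IRX10 with quantile normalization (-0.0243), median centring (-0.0199) and array weights (-0.19), and in NDB4 with quantile normalization (0.0029). With 1 array left out IRX10 ranged from -0.20 (wild type replicate 3) to 0.23 (wild type replicate 2) and was -0.17 without sdg2 replicate 1, and RPN12A ranged from -0.14 (wild type replicate 1) to 0.0113 (wild type replicate 3). Of the root markers PYK10 lost its call under 7 alternatives and EXPA7 gained one under 4; the cause was not tested. At the SE of NAC014 over all 6 arrays a change had to reach 0.41 log2 units to pass; without wild type replicate 2 the SE was smaller, 0.08.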
